A study of Mus musculus with 8 samples.

Results

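The genes described here build and anchor the sarcomere of skeletal muscle: thin filament proteins, titin and its M-band and thick filament partners, Z-disc and intermediate filament proteins, and proteins of the Z-disc and I-band that respond to stretch. The members were 40 listed gene symbols, and each was read from the entry whose gene name, split at commas, held that symbol. Entries were found for 39 of the 40, among 43239 distinct gene names, and all 39 were among the 11878 genes tested, those that averaged 1 FPKM or more. Skeletal alpha-actin, Acta1, had no entry under its symbol and was not analysed here. Obsl1 stood in an entry joined with Chpf, and Capn3 in an entry joined with Ganc, so their values are those of the joined entries.

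RNA was sequenced from quadriceps muscle of 8 female mice aged 6 months. In 4 of them the labelled genotype was wild type (WT) and in 4 it was Mss51-/- (KO), with 1 library per mouse and no treatment named. Strain, littermate status and the design of the Mss51 allele were not given in the sources used here. Mss51, the targeted gene, went against the labels: it stood at 22.9, 37.0, 27.5 and 24.8 FPKM in WT replicates 1 to 4 and at 339.6, 201, 216 and 207 FPKM in KO replicates 1 to 4, so every direction below is that of the libraries labelled KO (log2 fold change 3.07, limma adjusted p = 0.000576). FPKM is the density of fragments per kilobase of transcript, scaled to the mapped fragments of a library, so levels of different genes can be compared per length. Depth, roughly estimated from the steps in low values, was 38.7 to 60.1 M (mega) fragments per library. As a check of the tissue, the 11 listed genes of slow oxidative fibres and 7 of the 10 of fast glycolytic fibres were above 0 in every library. Of the other 3, Myh4 was listed at 0 in all 8 libraries, Tnnt3 in 4 and Atp2a1 in 7. Such zeros in genes of this kind can be failed estimates of the authors' software.

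A sarcomere spans the distance between neighbouring Z-discs. Actin thin filaments are anchored in the Z-disc by alpha-actinin, and tropomodulins and leiomodins regulate their free ends, while titin runs from the Z-disc to the M-band, where myomesins link the myosin filaments. Several of these proteins exist in forms that differ between fibre types: alpha-actinin-3 and the fast myosin-binding protein C are restricted to fast fibres, and calsarcin-1 and myomesin-3 are typical of slow or intermediate fibres. Another set, including muscle LIM protein and the muscle ankyrin repeat proteins, is known to be induced when muscle is stretched.

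Among the 39 genes, 19 had a log2 fold change above 0 (48.7%, beside 54.4% of all genes tested) and 20 below it. Their median was -0.02, against 0.02 over all genes tested. The fold changes of the 39 ran from -0.46 (Mybpc2) to 1.20 (Myom3), and their median size regardless of sign was 0.24, against 0.11 over all genes. With all 8 libraries none of the 39 passed the test (limma adjusted p at least 0.341), where 9 of 11878 genes passed, 0.0758% of all. At an unadjusted p under 0.05, 6 of the 39 were higher (15.4%; 7.53% of all genes tested) and 5 lower (12.8%; 2.8% of all). The groups did not overlap in 2 genes with KO higher (5.13%; 3.89% of all genes) and 4 with KO lower (10.3%; 1.62% of all).

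The libraries labelled KO did not stand together in these genes. In 8 of the 39 (20.5%), KO replicates 2, 3 and 4 each lay above every WT library while KO replicate 1 did not, a pattern that 5.46% of all tested genes showed. In 3 of the 39 (7.69%), the same 3 libraries lay below every WT library and KO replicate 1 did not, against 2.9% of all genes. Both patterns were defined after the values were seen. KO replicate 1 lay outside the WT range in 16 of the 39 genes (41.0%), near the 41.8% of all tested genes in that library. KO replicates 2, 3 and 4 lay outside it in 26 (66.7%), 22 (56.4%) and 27 (69.2%), beside 50.1%, 48.6% and 44.9% of all tested genes. In the fit without KO replicate 1, 6 of the 39 passed, all higher (15.4%; 1.05% of all genes tested, or 125 of 11878): Actn2, Myoz2, Myom3, Mybpc1, Lmod2 and Lmod3. The same fit with library size factors called 3 of them (Actn2, Myoz2 and Myom3) and without a filter on low values 4 (Actn2, Lmod3, Mybpc1 and Myoz2). With rescaling to an equal sum of FPKM over the named genes it called none. In that sum a single entry made up 41.8% in WT replicate 3 and 54.9% in KO replicate 4. Of the 6 genes, all but Lmod3 had KO replicates 2 to 4 above every WT library and KO replicate 1 not. For these, leaving out KO replicate 1 by itself brought the small p, which adds no support. No member passed when any other single library was left out. In a bulk sample, a change in the number or size of fibres of a type and a change in RNA per fibre cannot be told apart.

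**Figure D1:**
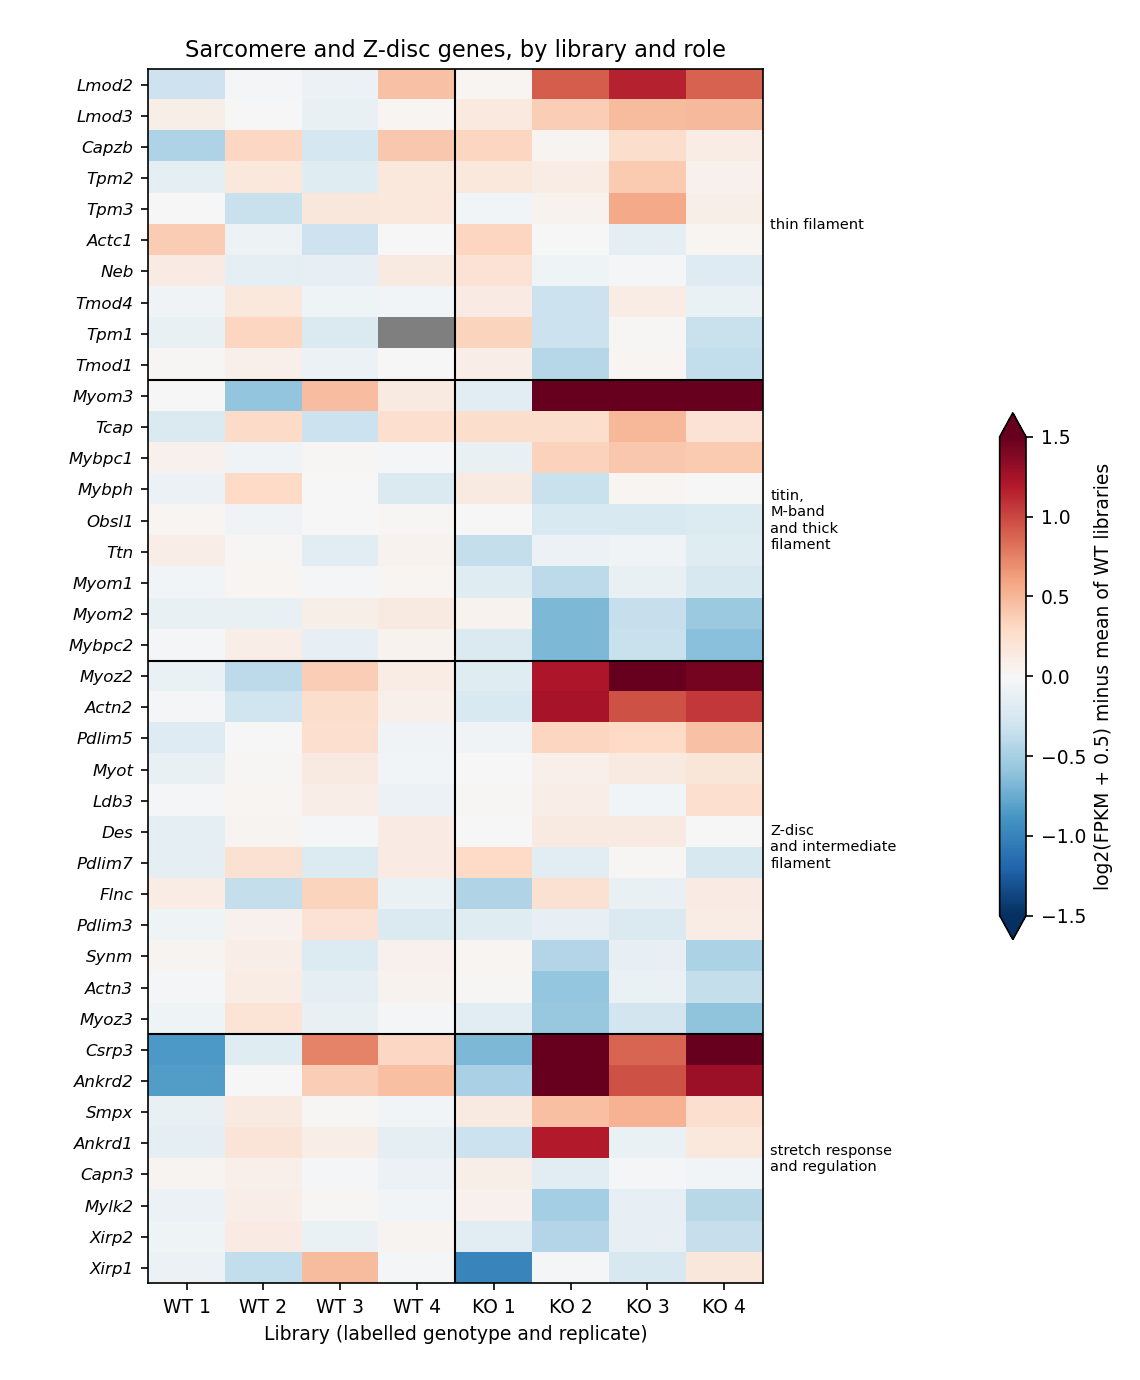
Levels of the 39 genes (rows, grouped by role) in each of the 8 libraries (columns), as log2(FPKM + 0.5) minus the mean of the WT libraries; red is above that mean, blue below, and grey marks the Tpm1 value listed at 0. In Myom3, Myoz2, Actn2, Lmod2, Csrp3 and Ankrd2 the columns of KO replicates 2 to 4 are red, while that of KO replicate 1 is near white or blue.

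Alpha-actinin-2, Actn2, cross-links actin in the Z-disc of all fibre types. It stood at 160.4, 133, 197 and 173 FPKM in WT replicates 1 to 4 and at 139.6, 387, 319.8 and 342 FPKM in KO replicates 1 to 4. KO replicate 1 was thus inside the WT range and the other 3 above it. The group means were 166 ± 26.4 FPKM and 297 ± 109 FPKM (SD, n = 4 each), and the log2 fold change was 0.75 (SE 0.30, limma adjusted p = 0.435), or 1.08 without KO replicate 1 (SE 0.14, adjusted p = 0.0133). The gene (ENSMUSG00000052374) lies on chromosome 13 at 12269426 to 12340760 of mm10. Calsarcin-1, Myoz2, binds alpha-actinin and the phosphatase calcineurin. It stood at 64.3, 52.1, 89.2 and 74.5 FPKM in the WT libraries and at 60.4, 160.0, 195 and 187 FPKM in the KO libraries. Again KO replicate 1 was inside the WT range and the other 3 above it. The log2 fold change of Myoz2 came to 0.99 (SE 0.36, adjusted p = 0.407), or 1.38 without KO replicate 1 (SE 0.17, adjusted p = 0.0133).

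Fast-fibre partners of these Z-disc proteins lay on the other side of 0. Alpha-actinin-3, Actn3, was the more abundant alpha-actinin in every library. It stood at 2710, 3001, 2515 and 2872 FPKM in the WT libraries and at 2805, 1858, 2582 and 2163 FPKM in the KO libraries (log2 fold change -0.25, SE 0.14, adjusted p = 0.557). KO replicates 2 and 4 lay below every WT library and the other 2 inside the range. Calsarcin-3, Myoz3, stood at 55.9, 67.5, 54.4 and 57.9 FPKM over the WT libraries and at 52.8, 39.3, 48.3 and 38.4 FPKM over the KO libraries. These groups did not overlap, with a log2 fold change of -0.40 (SE 0.12, adjusted p = 0.347; -0.49 and adjusted p = 0.104 without KO replicate 1).

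None of the 12 Z-disc and intermediate filament genes passed with all libraries. Pdlim5, a PDZ-LIM adaptor of alpha-actinin, stood at 271, 312, 369 and 298 FPKM in the WT libraries and at 300.1, 388, 383 and 421 FPKM in the KO libraries (0.25, adjusted p = 0.536). KO replicates 2 to 4 exceeded every WT library and KO replicate 1 lay among them. Synemin, Synm, an intermediate filament protein, averaged 124 ± 11.7 FPKM over the WT libraries and 105 ± 18.3 FPKM over the KO libraries (-0.25, adjusted p = 0.539). For several abundant scaffolds the interval of the fold change was narrow. For desmin, Des, which links neighbouring Z-discs, it ran from -0.12 to 0.25 around 0.07 (95% confidence), at 889.8 ± 66.9 FPKM over the WT libraries and 930.4 ± 51.1 FPKM over the KO libraries. For Ldb3, the adaptor also called ZASP or Cypher, it ran from -0.11 to 0.27 around 0.08, and for myotilin, Myot, from -0.08 to 0.27 around 0.10. The signs of Des, Ldb3 and Myot turned with quantile normalization and with rescaling to an equal sum. The actin cross-linker filamin C, Flnc (-0.05), and the adaptors Pdlim3 (-0.10) and Pdlim7 (-0.02) overlapped widely between the groups, and the signs of Flnc and Pdlim7 turned when single libraries were left out.

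**Figure D2:**
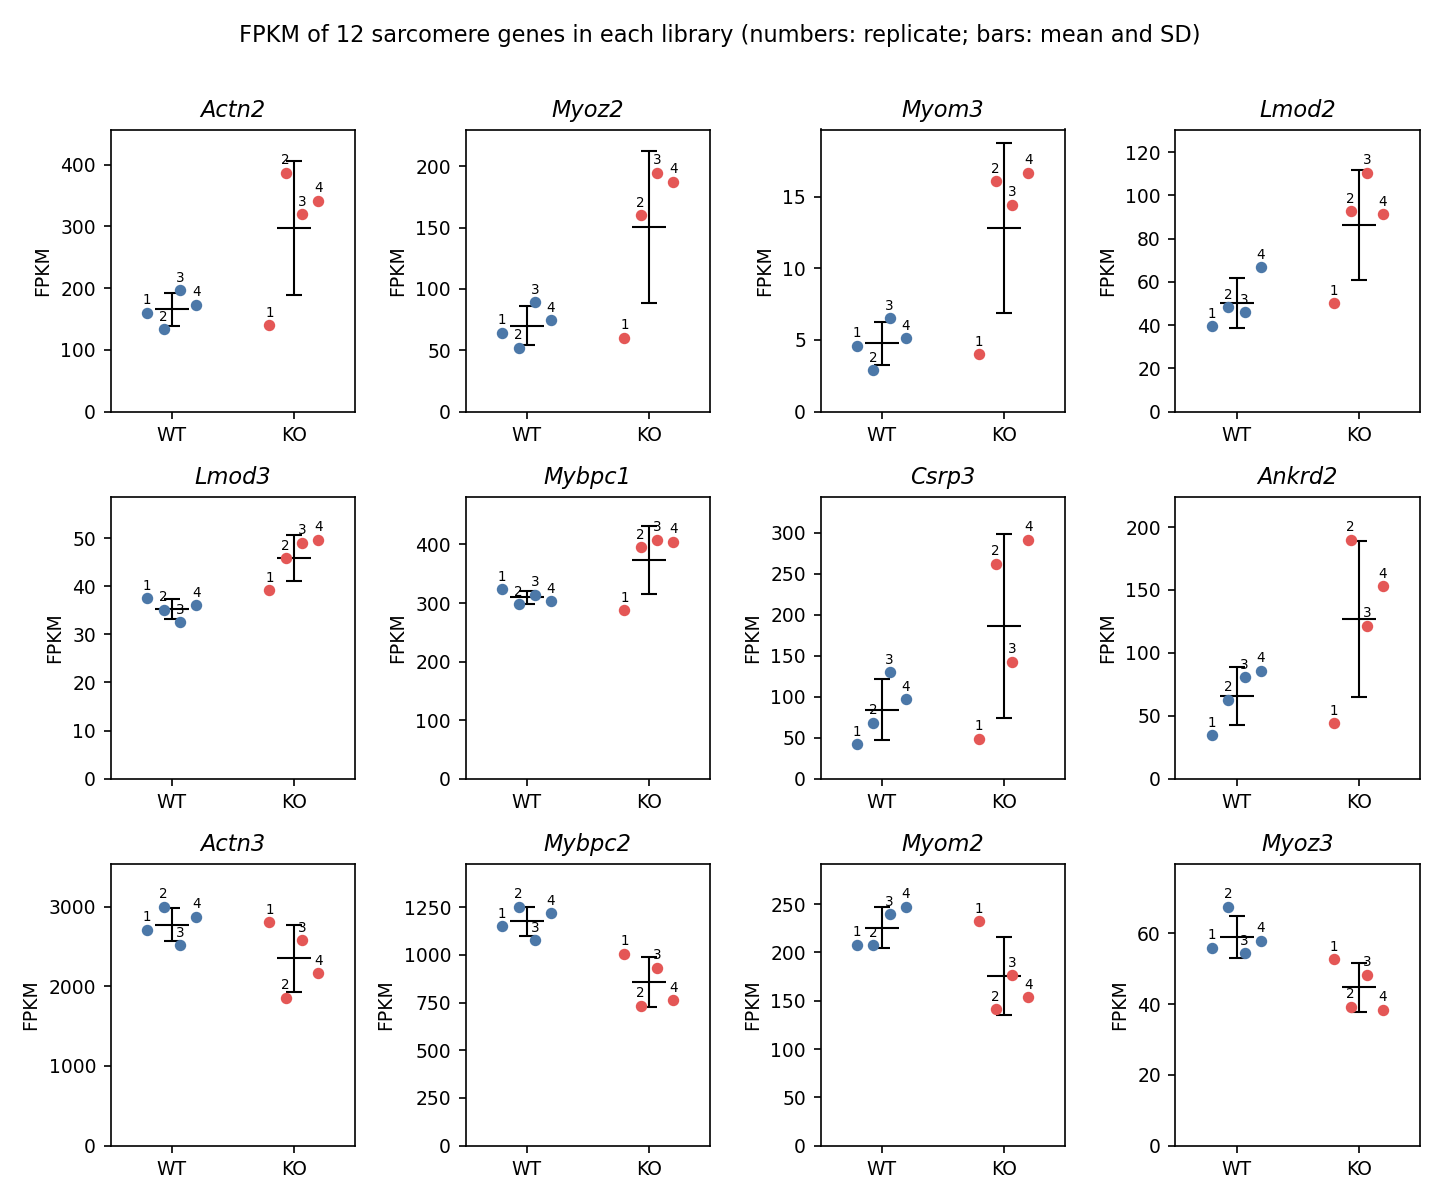
FPKM of 12 sarcomere genes (linear axes from 0) in the 4 WT (blue) and 4 KO (red) libraries, with the replicate number beside each point and the mean and SD of each group as bars. For Actn2, KO replicate 1 sits at 139.6 FPKM among the WT points while KO replicates 2 to 4 sit between 319.8 and 387 FPKM. Lmod3 (KO higher) and Mybpc2 and Myoz3 (KO lower) show no overlap between the groups.

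Of the M-band proteins, myomesin-3, Myom3, had the largest fold change of the 39 genes and the lowest level of the 3 myomesins. It stood at 4.59, 2.89, 6.52 and 5.12 FPKM in the WT libraries and at 4.03, 16.1, 14.4 and 16.7 FPKM in the KO libraries. The value in KO replicate 1 was inside the WT range, and those in the other 3 exceeded its upper end. The log2 fold change was 1.20 (SE 0.42, adjusted p = 0.396), or 1.66 without KO replicate 1 (SE 0.22, adjusted p = 0.0159). Myomesin-2, Myom2, the M-protein of fast fibres, stood at 208, 208, 239 and 248 FPKM in the WT libraries and at 233, 141, 177 and 153 FPKM in the KO libraries (-0.38, SE 0.15, adjusted p = 0.436; -0.52 and 0.0718 without KO replicate 1). Here too KO replicate 1 was inside the WT range, and the other 3 were below it. Myomesin-1, Myom1, found in the M-band of all fibres, stood at 224, 234, 226 and 235 FPKM in the WT libraries and at 203.2, 175, 213 and 194 FPKM in the KO libraries. The groups did not overlap (-0.23, SE 0.07, adjusted p = 0.355).

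Myosin-binding protein C, which lies along the thick filament and tunes cross-bridges, was divided between its slow and its fast form. The fast form, Mybpc2, stood at 1149, 1253, 1077 and 1220 FPKM in the WT libraries and at 1006, 733, 933 and 762 FPKM in the KO libraries. All 4 KO libraries were below every WT library, with a log2 fold change of -0.46 (SE 0.12, adjusted p = 0.344; -0.54 and 0.0677 without KO replicate 1). The slow form, Mybpc1, stood at 323, 298, 314 and 303 FPKM in the WT libraries and at 287.5, 395, 408 and 405 FPKM in the KO libraries. KO replicate 1 had the lowest of the 8 values and KO replicates 2 to 4 the highest (0.26, SE 0.12, adjusted p = 0.496; 0.38, SE 0.06 and adjusted p = 0.0344 without KO replicate 1). The related Mybph did not separate the groups (243 ± 37.8 against 236 ± 31.9 FPKM, SD, n = 4 each).

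Titin itself, Ttn, the spring that spans from Z-disc to M-band, stood at 49.8, 47.1, 41.2 and 48.0 FPKM in the WT libraries and at 36.0, 43.6, 44.7 and 40.8 FPKM in the KO libraries. The ranges overlapped, and KO replicate 1 was the lowest (-0.17, 95% confidence from -0.38 to 0.03, adjusted p = 0.549). Tcap, which caps titin's end in the Z-disc, ranged from 2226 to 3412 FPKM in the WT libraries and from 3234 to 3951 FPKM in the KO libraries (0.31, adjusted p = 0.536). The entry of Obsl1, a linker of titin and myomesin, stood at 21.7, 20.6, 21.3 and 21.7 FPKM in the WT libraries and at 21.5, 18.1, 18.2 and 18.5 FPKM in the KO libraries (-0.16, adjusted p = 0.496), again with KO replicate 1 among the WT values.

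In the thin filament, the leiomodins, which nucleate and elongate actin filaments, stood apart from the other genes. Lmod2 was at 39.6, 48.2, 46.1 and 66.7 FPKM in the WT libraries and at 50.3, 92.8, 111 and 91.4 FPKM in the KO libraries. KO replicate 1 fell within the WT range, and the other 3 exceeded all WT values (0.75, SE 0.25, adjusted p = 0.366; 0.98, SE 0.17 and 0.0452 without KO replicate 1). Lmod3 was at 37.6, 35.1, 32.5 and 36.1 FPKM in the WT libraries and at 39.2, 45.8, 49.0 and 49.7 FPKM in the KO libraries. All 4 KO libraries were above every WT library here, and Lmod3 had the smallest p of the 39 genes (0.37, SE 0.09, adjusted p = 0.341; 0.44, SE 0.07 and 0.0368 without KO replicate 1).

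Other thin filament genes showed no separation of the groups. Tropomodulins cap the pointed end of the filament: Tmod4 ranged from 313 to 365 FPKM in the WT libraries and from 261 to 356 FPKM in the KO libraries, and Tmod1 from 56.2 to 63.3 and from 44.6 to 64.3 FPKM. Nebulin, Neb, which runs along the filament, averaged 347 ± 35.6 FPKM over the WT libraries and 344 ± 41.6 FPKM over the KO libraries (-0.02, 95% confidence from -0.26 to 0.23). The barbed-end capping protein Capzb ranged from 304 to 554 FPKM in the WT libraries alone, wider than its range of 428 to 522 FPKM in the KO libraries. Tropomyosins cover the actin filament. Tpm1, the most abundant of the 39 genes, was listed at 0 in WT replicate 4 and at 6649, 8965 and 6148 FPKM in WT replicates 1 to 3, so the 0 was taken as a failed estimate and that library dropped from its fit. Against 9020, 5730, 7231 and 5700 FPKM in the KO libraries the log2 fold change was -0.07 (SE 0.21, adjusted p = 0.930, n = 3 against 4). With the 0 kept it became 3.38, a value set by that single entry. Tpm2 (0.18) and the slow-fibre form Tpm3 (0.17) overlapped between the groups, and both signs turned after rescaling to an equal sum. Cardiac alpha-actin, Actc1, stood at 500.2 ± 102 FPKM over the WT libraries and 513 ± 72.8 FPKM over the KO libraries. Its coding sequence is very similar to that of Acta1, so how the authors' software divided reads between these genes is uncertain.

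Among the 8 stretch-responsive and regulatory genes none passed in either fit. Muscle LIM protein, Csrp3, a Z-disc protein linked to mechanosensing, stood at 42.4, 68.1, 130.0 and 96.6 FPKM in the WT libraries and at 48.6, 262, 143 and 292 FPKM in the KO libraries. KO replicate 1 was near the low end of the WT range, and the other 3 lay above it (0.96, SE 0.56, adjusted p = 0.60; 1.51, SE 0.40 and 0.143 without KO replicate 1). Ankrd2, an ankyrin repeat protein of the I-band that binds titin, stood at 34.8, 62.8, 80.6 and 85.8 FPKM in the WT libraries and at 44.3, 190.1, 122 and 153 FPKM in the KO libraries, in the same arrangement (0.84, SE 0.45, adjusted p = 0.560; 1.28, SE 0.31 and 0.120 without KO replicate 1). Csrp3 and Ankrd2 had the largest SE of the 39 genes. The relative Ankrd1 was low, from 4.69 to 6.88 FPKM in 7 libraries and 14.3 FPKM in KO replicate 2, and its sign (0.24) turned without that library (-0.08).

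Smpx, a small protein of the costamere, stood at 179.8, 214.1, 196 and 189 FPKM in the WT libraries and at 214.4, 266, 279 and 232 FPKM in the KO libraries. The groups did not overlap, though the lowest KO and the highest WT value were nearly equal (0.34, SE 0.10, adjusted p = 0.344). Xirp2, an actin-binding repeat protein, was lower in all 4 KO libraries, at 171.1, 142, 176 and 151 FPKM against 185, 210, 180.2 and 198 FPKM in the WT libraries (-0.27, SE 0.09, adjusted p = 0.366). Its relative Xirp1 overlapped, with its lowest value of 10.2 FPKM in KO replicate 1. Mylk2, the kinase of the regulatory light chain in skeletal muscle, ranged from 391 to 447 FPKM in the WT libraries and stood at 435, 293, 381 and 312 FPKM in the KO libraries (-0.24, adjusted p = 0.541). The entry of calpain-3, Capn3, a protease bound to titin, had the smallest SE of this role (0.07), at 58.3 ± 2.94 FPKM over the WT libraries and 56.9 ± 4.15 FPKM over the KO libraries (-0.03, 95% confidence from -0.20 to 0.13).

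**Figure D3:**
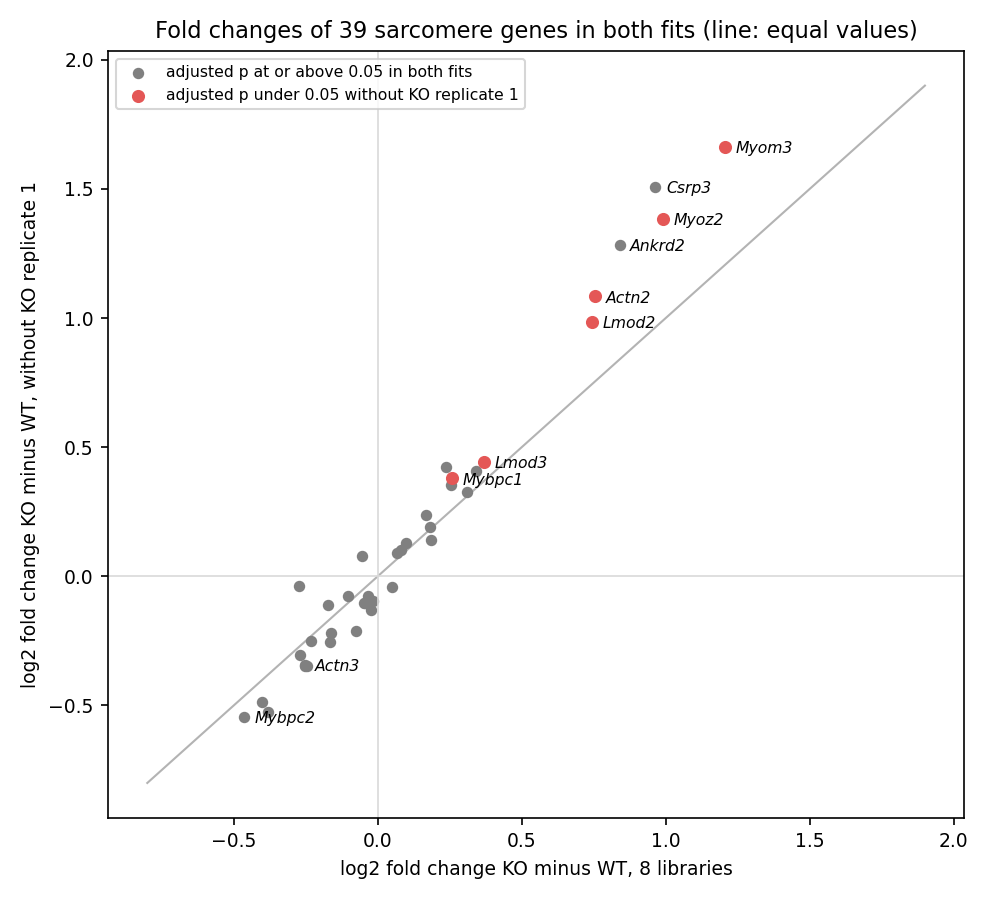
Log2 fold changes (KO minus WT) of the 39 genes from all 8 libraries (x axis) and without KO replicate 1 (y axis), with the line of equal values; red points passed without that library. Myom3 moved from 1.20 to 1.66 and Actn2 from 0.75 to 1.08, while Mybpc2 moved from -0.46 to -0.54.

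Shares within a gene family do not depend on a scale factor common to a library. They were computed for 7 families and compared by two-sided exact permutation tests, adjusted by Benjamini-Hochberg over the 7. The smallest p possible was 0.0286. Actn2 made up 5.59%, 4.25%, 7.25% and 5.69% of the 2 alpha-actinins in the WT libraries and 4.74%, 17.2%, 11.0% and 13.6% in the KO libraries (exact permutation p = 0.114, adjusted p = 0.160). Myoz2 made up 5.31%, 3.58%, 6.43% and 5.30% of the 3 calsarcins (with Myoz1) in the WT libraries and 4.30%, 14.3%, 12.6% and 14.8% in the KO libraries (exact permutation p = 0.114, adjusted p = 0.160). In both families KO replicate 1 stood among the WT libraries, and the other 3 exceeded them. The slow form of myosin-binding protein C, Mybpc1, made up 22.0%, 19.2%, 22.6% and 19.9% of Mybpc1 and Mybpc2 together in the WT libraries and 22.2%, 35.0%, 30.4% and 34.7% in the KO libraries (exact permutation p = 0.0571, adjusted p = 0.160). The share of Myom3 among the myomesins was 1.03 ± 0.299% over the WT libraries and 3.48 ± 1.79% over the KO libraries (SD, n = 4; exact permutation p = 0.114, adjusted p = 0.160).

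None of the 7 shares passed. Those of Tmod1 among Tmod1 and Tmod4 (15.5 ± 0.614% against 14.4 ± 0.898%; exact permutation p = 0.0857, adjusted p = 0.160), of Lmod2 among the leiomodins (58.2 ± 5.56% against 64.3 ± 5.71%; p = 0.229, adjusted p = 0.267) and of Tpm3 among the tropomyosins (0.759 ± 0.248%, n = 3, against 0.854 ± 0.180%, n = 4; p = 0.514, adjusted p = 0.514) overlapped between the groups. Without KO replicate 1 the shares of Actn2, Myoz2, Mybpc1 and Myom3 each reached the smallest p possible for 4 against 3 libraries (exact permutation p = 0.0286, adjusted p = 0.050), with differences of 8.28, 8.79, 12.5 and 3.30 percentage points. In each of these shares KO replicates 2 to 4 exceeded every WT library, so leaving out KO replicate 1 by itself brought the smallest p. This p adds no support, and the adjusted p was not under the threshold of 0.05.

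**Figure D4:**
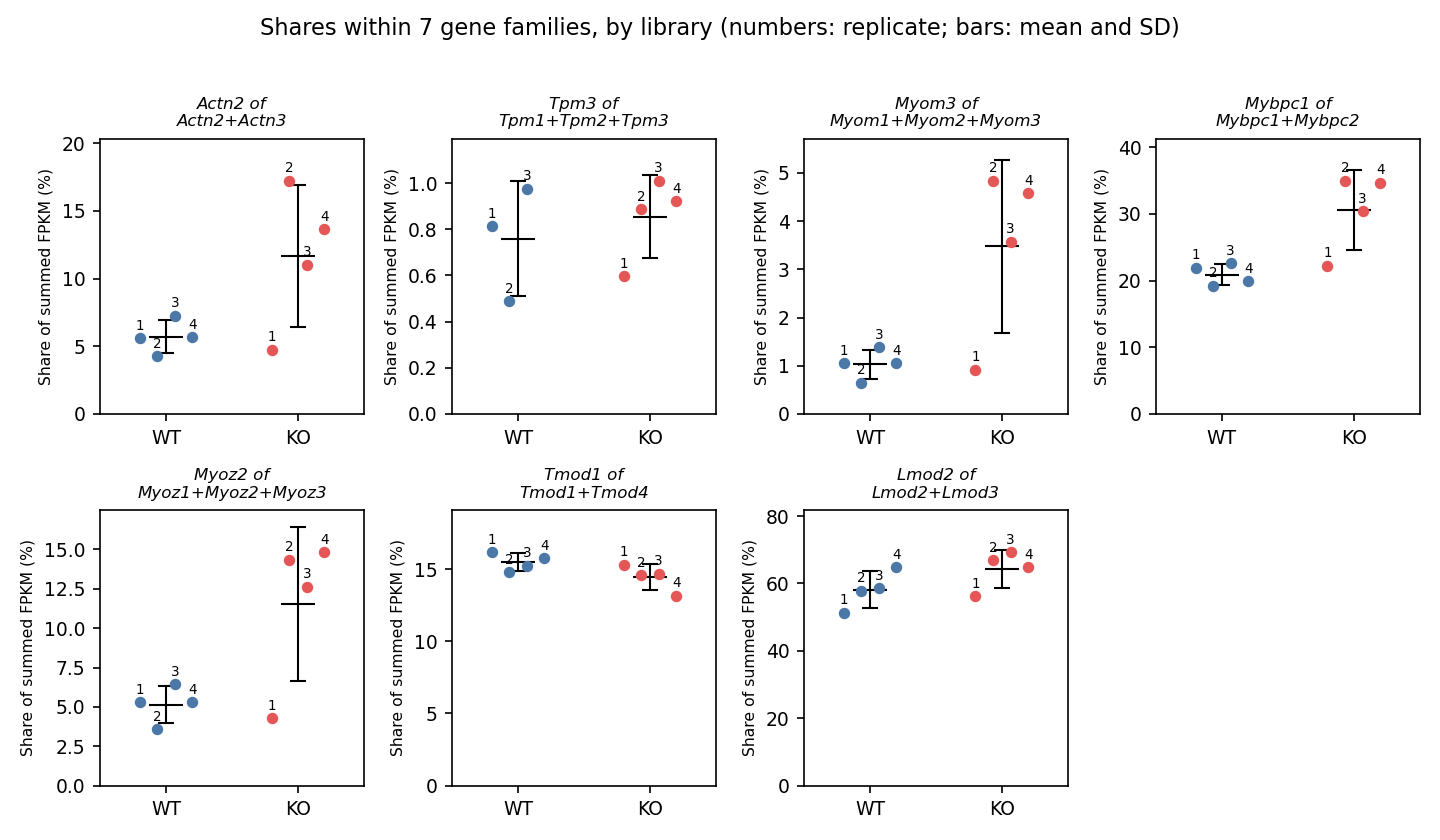
Share of the named gene in the summed FPKM of its family (%, axes from 0) in each library, with the replicate number beside each point and the mean and SD of each group as bars. KO replicate 1 lies among the WT points for Actn2, Myom3, Mybpc1 and Myoz2 (22.2% for Mybpc1, against 19.2% to 22.6% in the WT libraries).

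The promoters of members that passed without KO replicate 1 were read from RefSeq (build GRCm38.p6), from 250 bases before to 50 bases after the gene start. The table held 30 of the 39 genes, in 36 windows, Lmod3 not among them. A MEF2 site, the motif of a factor family of striated muscle, was found on either strand in 5 of these 30 genes (Capn3, Myom3, Myoz2, Ttn and Xirp2), in 13.9% of their windows against 3.19% of all 32851 windows. A CArG box, the motif of serum response factor, was found in Actc1, Ldb3 and Myom1 (11.1% of windows against 1.63%). The letters TATAAA were in 11.1% against 13.6%, CATTCC (the MCAT element) in 25.0% against 14.7%, and CANNTG (an E-box) in 77.8% against 72.3%, all counted on both strands, and matches of different motifs may overlap. Of the 5 passing genes with a window, Myom3 and Myoz2 held a match to the MEF2 site, beginning at positions -35 and -33 from the start. Only the letters TATAAA were searched as a TATA motif, so these matches cannot be told apart from other TATA-like stretches. Binding was not tested. Actn2, Lmod2 and Mybpc1 held no match to the MEF2 site, CArG box, TATAAA or CATTCC. The windows of Myom3 (chr4:135759465-135759764, plus strand), Myoz2 (chr3:123034938-123035237, minus strand) and Actn2 (chr13:12340683-12340982, minus strand) are shown 5′ to 3′ because they belong to the passing genes with the largest fold changes in that fit, the MEF2 site in capitals.
Myom3: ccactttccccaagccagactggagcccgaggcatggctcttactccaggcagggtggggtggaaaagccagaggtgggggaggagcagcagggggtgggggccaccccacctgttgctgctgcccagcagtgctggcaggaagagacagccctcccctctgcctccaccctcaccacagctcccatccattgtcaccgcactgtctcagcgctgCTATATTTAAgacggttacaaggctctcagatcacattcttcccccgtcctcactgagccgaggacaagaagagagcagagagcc
Myoz2: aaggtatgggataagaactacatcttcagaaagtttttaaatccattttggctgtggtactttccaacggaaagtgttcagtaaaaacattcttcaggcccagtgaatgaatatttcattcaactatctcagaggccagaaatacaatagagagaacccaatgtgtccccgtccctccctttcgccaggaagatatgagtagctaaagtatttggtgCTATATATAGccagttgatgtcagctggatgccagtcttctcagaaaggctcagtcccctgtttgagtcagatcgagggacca
Actn2: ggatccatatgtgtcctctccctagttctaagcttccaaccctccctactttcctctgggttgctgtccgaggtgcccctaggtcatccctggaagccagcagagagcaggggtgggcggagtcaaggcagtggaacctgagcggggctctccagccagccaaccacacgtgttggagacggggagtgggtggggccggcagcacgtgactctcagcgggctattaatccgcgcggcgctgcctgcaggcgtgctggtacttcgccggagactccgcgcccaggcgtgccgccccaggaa

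Some fibre type markers differed in the same libraries. Of the 11 markers listed as slow oxidative, among them Myh2 of fast oxidative fibres, 10 had a log2 fold change above 0. None passed with all libraries, and 5 passed without KO replicate 1 (Mb, Myh2, Myl2, Pln and Casq2), where 1.05% of all genes tested passed. These 5 and Myl3 had KO replicates 2 to 4 above every WT library and KO replicate 1 not. The other 5 did not show that arrangement, which 5.46% of all genes tested had. The summed level of all 11, most of it Mb in every library, was 2526 to 3125 FPKM in the WT libraries. It was 2914 FPKM in KO replicate 1 and 6134 to 6732 FPKM in KO replicates 2 to 4. Myosin 2a, Myh2, the myosin of fast oxidative fibres, stood at 127, 96.6, 141 and 156 FPKM in the WT libraries and at 125, 494, 447 and 391 FPKM in the KO libraries, with KO replicate 1 again among the WT values. Myoglobin, Mb, and the slow myosin light chain Myl2 did likewise, at 1838 and 272 FPKM in KO replicate 1, inside the WT ranges of 1624 to 1937 and 198 to 353 FPKM. In KO replicates 2 to 4 Mb stood at 4704, 3645 and 4010 FPKM, and Myl2 at 605, 876 and 763 FPKM. The 5 without the arrangement were the slow myosin Myh7 (in an entry joined with Myh6), the slow troponins Tnni1, Tnnc1 and Tnnt1, and the calcium pump Atp2a2. Myh7 stood at 27.1, 29.9, 36.4 and 26.4 FPKM in the KO libraries, within the WT range of 23.0 to 41.5 FPKM. The other 4 had adjusted p of 0.418 to 0.601 without KO replicate 1 (limma). Of the 9 fast glycolytic markers tested, none passed in either fit. Tnnt3 and Atp2a1 were fitted with their zeros kept (SE 4.71 and 2.82 with all libraries), so their fits say little. Pfkm, Casq1 and Pvalb had KO replicates 2 to 4 below every WT library and KO replicate 1 not, as did 2.9% of all genes tested (log2 fold changes of -0.37, -0.37 and -0.49 without KO replicate 1, limma adjusted p = 0.0863, 0.217 and 0.231). The 7 fast markers without a listed 0 summed to 44040 to 59880 FPKM in the WT libraries, 60330 FPKM in KO replicate 1 and 40430 to 49370 FPKM in KO replicates 2 to 4. The part of fibre type composition in the sarcomere values was not tested.

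Markers of other cell types were also measured. Among 5 cardiac markers Nppa and Myl7 were listed at 0 in every library, and the list's sum, mostly the entry of Myh6 joined with Myh7, was 24.6 to 42.0 FPKM in the WT and 27.3 to 37.5 FPKM in the KO libraries. The summed smooth muscle markers (6 genes) were 97.1 to 112 FPKM in the WT libraries and 91.9 to 109.8 FPKM in the KO libraries, and the 4 of regenerating fibres 15.1 to 28.8 and 11.4 to 28.1 FPKM. KO replicate 1 had the lowest sum of the 6 tendon markers (52.1 FPKM, against 75.6 to 147 FPKM in the WT libraries and 59.9 to 132 FPKM in the other KO libraries). It also had the highest sum of the 3 haemoglobin genes (2417 FPKM, against 404 to 995 and 521 to 1279 FPKM). The summed satellite cell markers (3 with an entry) were low throughout, at 2.70 to 3.26 FPKM in the WT libraries and 2.21 to 2.57 FPKM in the KO libraries, without overlap. Of these only Pax7 kept the groups apart (0.908 to 1.42 FPKM in the WT and 0.564 to 0.780 FPKM in the KO libraries). Pax7 averaged under 1 FPKM and was not tested, and Myf5 and Calcr overlapped. Sums of the 5 fibroblast markers (751 to 861 against 603 to 884 FPKM), the 6 adipocyte markers (326 to 429 against 283 to 456 FPKM), the 4 endothelial markers (55.3 to 77.0 against 50.8 to 103 FPKM) and the 4 markers of the neuromuscular junction (18.6 to 24.3 against 22.6 to 25.5 FPKM) overlapped. None of these lists had a gene past the threshold with all libraries. Without KO replicate 1, the adipocyte hormone Lep passed (log2 fold change -2.05, limma adjusted p = 0.0101). It stood at 2.29, 4.40, 3.88 and 2.88 FPKM in the WT libraries and at 2.79, 0.577, 0.324 and 0.353 FPKM in the KO libraries. The lipid droplet protein Plin1 had the same order of groups, at 11.6 to 18.7 FPKM in the WT libraries, 15.5 FPKM in KO replicate 1 and 4.95 to 8.64 FPKM in KO replicates 2 to 4 (log2 fold change -0.73 and adjusted p = 0.445 with all libraries, adjusted p = 0.0975 without KO replicate 1). The other 4 adipocyte markers did not show it. Smtn of the smooth muscle, Kdr of the endothelial and Colq of the junction markers had KO replicates 2 to 4 above every WT library and KO replicate 1 not, and none of them passed in either fit. The part of these cell types in the sarcomere values was not tested.

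A further list of sarcomere and Z-disc genes and their partners, outside the 39, held 62 genes with an entry, of which 59 were tested. Of these, 20 were above 0 (33.9%, beside 54.4% of all genes tested) and 39 below. Their median was -0.06, against 0.02 over all genes, and none passed with all libraries (limma adjusted p at least 0.344). At an unadjusted p under 0.05, 5 were higher (8.47%, near the 7.53% of all genes) and 3 lower (5.08%, beside 2.8% of all genes). Fhl1, a LIM protein of the sarcomere, passed without KO replicate 1 (adjusted p = 0.0249). It stood at 520.3, 459, 643 and 471 FPKM in the WT libraries and at 421, 1596, 974 and 1182 FPKM in the KO libraries, with KO replicate 1 the lowest of all 8 (0.85 in the fit of all libraries, adjusted p = 0.451). The others with the smallest p were Igfn1, a Z-disc protein (0.47), Cmya5, an anchoring protein also called myospryn, joined with Papd4 (-0.28), the sarcoglycan Sgca (-0.18), the small heat shock protein Hspb6 (0.35) and the formin Fhod1 (-0.17).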

How the data were processed

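The authors deposited 1 table of FPKM per library, per the file headers. Per the submitters' processing notes, FastQC, TopHat2 2.1.1, Bowtie2 2.2.6 and Cufflinks 2.2.1 were used with mm10. The role of each tool, the annotation, filters and strand setting are not given in the sources used here, so overlapping genes on opposite strands are uncertain. No counts were used, so no counting error is given. Entries without a gene name (2379 of 46036, with 65.8% to 93.2% of the summed FPKM) were left out, and repeated names took the entry with the highest mean.

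Genes averaging 1 FPKM or more were compared on the scale log2(FPKM + 0.5), KO minus WT (limma 3.58.1, R 4.3.3, genotype alone, mean trend, two-sided, Benjamini-Hochberg over 11878 genes, threshold 0.05), so fold changes of low genes are understated. A 0 in a gene with at least 10 FPKM in 5 or more libraries was taken as a failed estimate and left out of that gene (18 values in 13 genes, Tpm1 among the members). Shares of summed FPKM were compared by exact permutation, with p-values adjusted over 7 shares. Coordinates are from GENCODE M21. The fit was run on simulated data with independent noise in each gene and library. That run did not cover a library that stands apart in many genes. The fit was repeated with another pseudocount, filter or scaling, with zeros kept, repeated names summed, array weights or a replicate block, and without each library. Combinations of these with KO replicate 1 left out were added after seeing the data. All members were described. Members past the threshold, without overlap, with the 12 smallest p or with a failed estimate were given in full. Of members in a share, Tmod1 and Tmod4 were given by range and Tpm2 and Tpm3 by fold change, the others in full. Of the further list, the 6 with the smallest p were named with their fold change. The members and lists were chosen with earlier results of these data known.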

Additional observations from a re-analysis of the deposited data

Results flagged for a closer look

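Within groups of 4 libraries, the highest or lowest value of a gene or share was compared with its nearest neighbour. Of 92 groups so compared, 6 held a value far from the other 3, or 6.52%, where chance gives about 5%. In 5 of the 6 it was KO replicate 1. That library was the lowest of the KO group for Myom3 (4.03 FPKM), Mybpc1 (287.5 FPKM) and Myoz2 (60.4 FPKM), and the highest for the entry of Obsl1 (21.5 FPKM) and for Mss51 (339.6 FPKM). The sixth was Tmod4 in WT replicate 2 (365 FPKM), the highest of its group. No cause was tested.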

How the results depend on the processing

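Of 741 member fold changes recomputed under other settings, 701 kept their sign and side of the threshold, 34 turned sign and 6 passed. All 6 were in the fit without KO replicate 1, and 24 of the 39 genes never turned sign. The count of members past the threshold was 0 in every fit that kept KO replicate 1, and 0 to 6 over the fits without 1 library. The count over all genes, 9 as reported, was 5 without a filter and 101 after rescaling to an equal sum over the named genes. It was 0 with the replicate block and 4 to 125 without 1 library. Same-numbered deviations correlated from -0.10 to 0.00165, and 0 of 8 libraries correlated best with their own number. What a shared replicate number stands for is not given in the labels, so these values do not settle whether libraries were paired. The median of the members, -0.02 as reported, was -0.23 after rescaling, -0.10 with quantile normalization, 0.0480 with zeros kept and -0.0363 to 0.0549 without 1 library. Rescaling moved the median of all genes to -0.18, and 19 of the 39 lay above that median, as many as before. In that sum a single entry made up 41.8% in WT replicate 3 and 54.9% in KO replicate 4.

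After rescaling Actc1 stood at -0.17, Tpm2 at -0.0333, Tpm3 at -0.0455, Capzb at -0.0292, Ldb3 at -0.13, Des at -0.15 and Myot at -0.12. Relative to the median of all genes in that fit, each of these stayed above 0, from 0.012 (Actc1) to 0.15 (Capzb). With quantile normalization Actc1 stood at -0.0808, Tpm2 at -0.0602, Ldb3 at -0.0414, Des at -0.12 and Myot at -0.0330. Each of these was below 0 also relative to the median of all genes, from -0.11 (Des) to -0.018 (Myot). Tpm1 was 3.38 with zeros kept and 0.0094 with the replicate block. Without 1 library the ranges that crossed 0 were -0.0555 to 0.17 for Actc1, -0.0835 to 0.42 for Ankrd1, -0.0755 to 0.0098 for Capn3, -0.17 to 0.0791 for Flnc, -0.11 to 0.0557 for Mybph, -0.0944 to 0.0421 for Neb, -0.13 to 0.0536 for Pdlim7, -0.10 to 0.0462 for Tmod4 and -0.21 to 0.0875 for Tpm1. The share of Tpm3 differed by -0.38 percentage points with zeros kept and by -0.0400 to 0.20 without 1 library. The cause of these turns was not tested, except that zeros kept bring in the failed estimate.

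With KO replicate 1 left out, the count of members past the threshold, 6, was 0 after rescaling (adjusted p of those 6 from 0.133 to 0.979) and 3 with size factors. With quantile normalization it was also 6, of which 4 were the same genes, Mybpc2 and Myom2 taking the place of Lmod3 and Mybpc1. Array weights gave 7, with 5 of the same genes, Lmod2 lost. The planned share of Actc1 among the actins was not run because Acta1 had no entry.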

Other observations

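The chaperones Cryab, Hspb7, Bag3 and Hspb6, picked from the further list after their values were seen, had KO replicates 2 to 4 above every WT library and KO replicate 1 not. The chaperones Hspb1 (log2 fold change 0.08) and Unc45b (0.08) of the same list overlapped between the groups. Cryab, the small heat shock protein alpha B-crystallin, stood at 716, 743, 881 and 624 FPKM in WT replicates 1 to 4 and at 652, 1448, 1084 and 1321 FPKM in KO replicates 1 to 4 (limma log2 fold change 0.55, adjusted p = 0.469, and 0.0515 without KO replicate 1). Hspb7, another small heat shock protein of striated muscle, stood at 108, 115, 185 and 129 FPKM in the WT libraries and at 111, 363, 214 and 283 FPKM in the KO libraries (0.76, adjusted p = 0.493, and 0.0848 without KO replicate 1). Bag3, their co-chaperone, stood at 68.2, 60.8, 77.5 and 69.0 FPKM in the WT libraries and at 65.8, 104, 83.3 and 104 FPKM in the KO libraries (0.35, adjusted p = 0.469). None of these chaperones passed with or without KO replicate 1. Among LIM proteins in the list, Fhl1, Fhl2 and Pdlim1 had the same arrangement, while Fhl3, Csrp1, Pdlim2, Pdlim4, Nrap and Zyx overlapped. In the further list as a whole, 9 of 59 genes (15.3%) had KO replicates 2 to 4 above every WT library with KO replicate 1 not above them, beside 5.46% of all genes tested.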
